A study of Homo sapiens with 6 samples.

Results

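Interferon-stimulated genes were followed in 3 variants of the human line HT-29, which comes from a colon adenocarcinoma. The list held 50 genes, taken as named members. It leaves out antigen presentation genes and the STAT and IRF transcription factors, which are described only in a later comparison. Of the 50 genes, 48 had at least 1 probe set of their own on the array, 92 probe sets in all, among 19775 genes on 54675 probe sets. A gene was tested if its log2 level was 4 or more on 2 or more of the 6 arrays, and 47 of the 48 passed that filter, among 10370 genes kept.

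The variants were BR200, BR100 and wild type, with 2 arrays each. BR200 and BR100 were resistant to bortezomib, a drug that blocks the proteasome, the complex that degrades ubiquitin-tagged proteins. Per the labels, HT-29 cells were grown in bortezomib that was raised in steps, beginning at 20 nM and ending at 300 nM, for 7 months. Clones were then isolated by 2 limiting dilutions in 100 or 300 nM drug over 4 further months. The wild type samples carry the same treatment text. The cloning dose of BR200 and the presence of drug at harvest are not in the labels, and each resistant variant may stand for a single clone. Each variant had an Express array (3' IVT Express kit, 100 ng of RNA) and a One-Cycle array (One-Cycle kit, 3 ug of RNA). Nothing in the labels says that a variant's arrays came from separate cultures, so p-values measure only the spread between these arrays.

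Interferons are secreted proteins that cells release on sensing viral nucleic acid. They bind receptors whose JAK kinases activate latent transcription factors, and these join IRF9 into a complex that binds the interferon-stimulated response element in the promoters of its targets. The targets sense RNA, degrade it, block translation or membrane fusion, or attach the ubiquitin-like protein ISG15 to other proteins. Many of them keep a basal level in epithelial cells without added interferon.

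The response element carries repeated GAAA blocks, and these were looked for in the promoters because most of the genes moved together. RefSeq (GRCh38.p14) promoter windows, covering 250 bases before to 50 after the annotated start, matched 42 of the 50 genes. The letters searched were GAAA, any 2 bases and a second GAAA, the paired GAAA motif. It stood on either strand in 28 of the 42, or 66.7%, against 3.17% of 15843 promoters of protein-coding genes. Among other interferon-stimulated genes, on a second list of 48, they stood in 13 of 32 promoters (40.6%). Both lists are made of genes known as interferon-stimulated. An excess of such letters thus goes with the choice of genes and is no support drawn from these arrays. The matched stretches below are shown for genes whose values the results turn on, with 10 flanking bases on each side, the strand that reads GAAA, and the matched letters in capitals.
ISG15, chr1:1013374-1013409, plus strand: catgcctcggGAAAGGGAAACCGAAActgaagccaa
IFI44L, chr1:78620274-78620303, plus strand: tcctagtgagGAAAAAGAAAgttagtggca
IFI27, chr14:94110618-94110647, minus strand: cattttccagGAAACCGAAActgcagacat
IFIT1, chr10:89392510-89392539, minus strand: gaaacctaggGAAACCGAAAggggaaagtg
IFITM1, chr11:314024-314053, plus strand: acacttctgaGAAACTGAAAcgacagggga
EPSTI1, chr13:42992272-42992301, minus strand: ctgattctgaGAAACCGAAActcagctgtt
MX1, chr21:41420559-41420588, plus strand: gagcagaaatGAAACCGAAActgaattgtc
OAS3, chr12:112938321-112938350, plus strand: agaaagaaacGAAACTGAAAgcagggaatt
IFI44, chr1:78649761-78649790, minus strand: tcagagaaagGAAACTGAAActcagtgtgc
BST2, chr19:17405735-17405770, minus strand: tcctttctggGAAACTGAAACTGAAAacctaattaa
GBP1, chr1:89065316-89065345, plus strand: agagtaatatGAAACTGAAAgtacttcgtt
NMI, chr2:151289812-151289841, plus strand: aaaagacagtGAAAAAGAAAactgctttaa
ISG15 and BST2 each had a pair of matches that share a GAAA block. IFI44L held the printed 30-base stretch in 2 places, identical to the letter. The MX1 match lies after the annotated start, in the transcribed part, the IFITM1 match crosses the start, and the others shown lie before it. NMI is shown because it carried the letters and was the only tested gene of the list called in none of the 3 comparisons of variants. XAF1, RSAD2, CMPK2, UBE2L6 and IFI35, all with large changes, had no match in the window, which says only that these letters are not there.

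The 250 bases before the start are printed for 2 genes with opposite patterns in BR200. ISG15 stayed below wild type in BR200 and GBP1 rose above it. Each is read on the gene's own strand, so the GBP1 match appears as its complement.
ISG15, chr1:1013247-1013496, plus strand: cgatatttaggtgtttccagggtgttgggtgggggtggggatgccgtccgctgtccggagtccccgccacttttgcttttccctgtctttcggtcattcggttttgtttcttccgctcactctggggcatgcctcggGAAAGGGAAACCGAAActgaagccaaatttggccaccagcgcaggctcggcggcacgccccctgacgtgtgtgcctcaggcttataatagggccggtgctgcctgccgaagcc
GBP1, chr1:89065209-89065458, minus strand: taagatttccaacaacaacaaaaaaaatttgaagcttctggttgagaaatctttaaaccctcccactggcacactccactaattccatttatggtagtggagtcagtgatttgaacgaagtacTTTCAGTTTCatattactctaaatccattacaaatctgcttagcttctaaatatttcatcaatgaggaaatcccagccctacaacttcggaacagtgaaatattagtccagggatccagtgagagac
The 28 promoters with a match held 43 separate sites once overlapping matches were merged, and 38 of these lay within 200 bases before the start. One match was found in 13 promoters, 2 in 11 and 3 in 4. The letters TTC and GAA with any 3 bases between them, those of a STAT site, stood in 10 of the 42 promoters (23.8%) against 6.97% of all promoters, and 4 promoters had a match of one motif overlapping a match of the other.

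**Figure D1:**
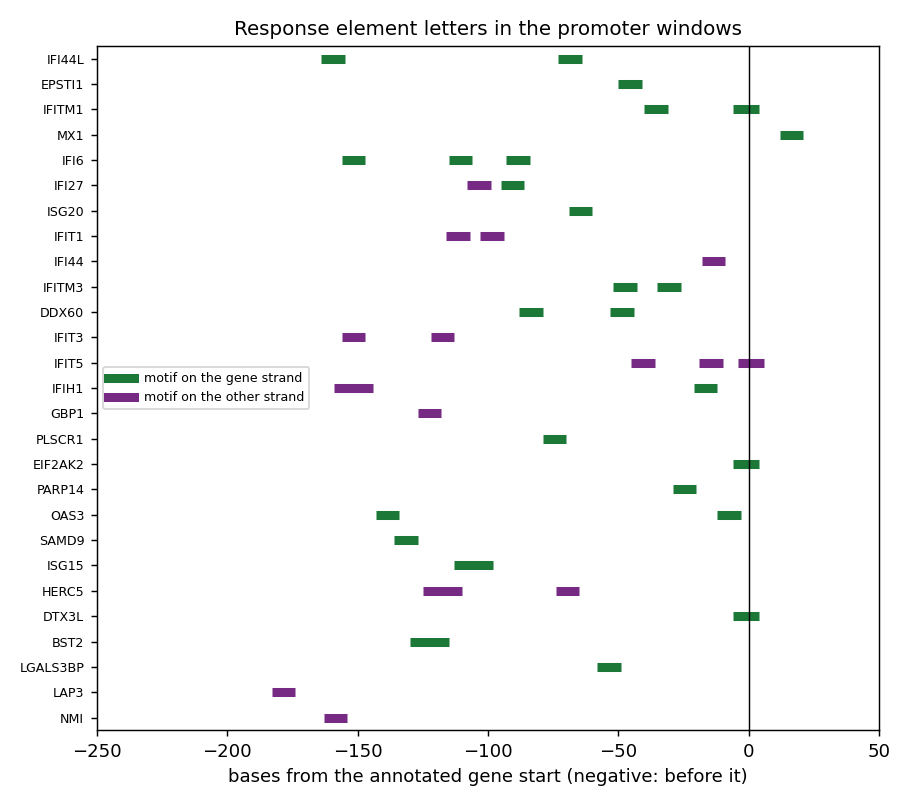
Positions of the paired GAAA motif in the promoter windows of the 27 tested genes that had a match, in bases from the annotated start (horizontal axis, negative before the start), ordered from the largest fall in BR100 at the top. Each bar is a site, coloured by the strand that reads the motif, and most lie within 200 bases before the start.

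Interferon-stimulated genes were lower in BR100 than in wild type, and in BR200 most stood between these variants. In BR200 against BR100, 38 of the 47 tested genes were called higher and 0 lower, at limma's Benjamini-Hochberg adjusted p under 0.05. Of all 10370 genes kept, 6.39% were called higher and 4.23% lower in that comparison. At an unadjusted p under 0.05 limma had 42 of the 47 higher and 0 lower, and 3259 of all 10370 genes in either direction. In BR100 against wild type, 45 of the 47 were called lower and 1 higher, where 31.8% and 36.7% of all genes were. In BR200 against wild type, 41 were called lower and 2 higher, against 31.2% and 35.4% of all genes. The median change of the 47 genes was 1.27 in BR200 minus BR100, -2.81 in BR100 minus wild type and -1.63 in BR200 minus wild type on the log2 scale. The medians over all genes in the same comparisons were -0.01, 0.04 and 0.04. In this bulk RNA, fewer cells that express a gene and less of its RNA per cell cannot be told apart.

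For 35 of the 47 genes the 3 tests placed BR200 in the middle, higher than BR100 and lower than wild type, as they did for 2.64% of all genes. Falls of at least 2-fold against wild type were called for 39 genes in BR200, where 10.7% of all genes had one, and for 43 genes in BR100, where 12% did. The median level of the 47 genes was 9.03 in BR200, 7.94 in BR100 and 11 in wild type on the log2 scale. Both arrays lay under 4, near background, for 2 genes in BR200, for 8 in BR100 and for none in wild type. Folds of those 8 genes depend on the background estimate. IFI16 and SAMD9L passed the filter through the wild type arrays alone. The filter thus favours their falls against wild type, which are no support although the counts and median shares include them.

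The difference between the resistant variants rests on few arrays. Without either BR200 array or either BR100 array, which leaves 1 residual degree of freedom, limma called 0 genes of the list, with 40 to 42 higher at an unadjusted p under 0.05. The count was 18 without the labelling kit as a block, where limma called 112 of all 10370 genes in either direction. It was 0 without the filter on low values, with 42 higher at an unadjusted p under 0.05. There limma called 15 of all 19775 genes. The share of all genes at an unadjusted p under 0.05 was not counted in these alternatives. The drop in calls, also that without 1 of those arrays, was thus not particular to the list. By value, 46 of the 47 genes were higher in BR200 than in BR100 within the Express arrays and 46 within the One-Cycle arrays. The exceptions were SAMD9L, equal on the Express arrays, and BST2, lower in BR200 on the One-Cycle arrays.

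RNA measures moved with the wild type comparisons. The 3' minus 5' gap of ACTB, which grows as RNA degrades, was 3.24 and 1.76 log2 units in BR200, 3.03 and 1.86 in BR100, and 4.22 and 2.99 in wild type, Express array first. That of GAPDH was 0.20 and 0.18 in BR200, 0.22 and 0.16 in BR100, and 0.48 and 0.40 in wild type. Their part in the changes was not tested. Epithelial markers EPCAM, CDH1, KRT8, KRT18, KRT19, KRT20, VIL1, CEACAM5 and LGALS4 passed the filter, while the intestinal markers CDH17, CDX1 and CDX2 did not. Of 17 markers of blood cells, fibroblasts and endothelium with a probe set, CD14, LYZ, COL1A1 and ENG passed the filter; PTPRC, CD3E and PECAM1 did not. Of the 9 epithelial markers tested, 5 were called lower by limma in each resistant variant than in wild type. Of all genes, 31.2% were called lower in BR200 and 31.8% in BR100. Between BR200 and BR100, 0 of the 9 differed by that test, where 6.39% of all genes were called higher and 4.23% lower. Against wild type LGALS4 changed by -5.56 in BR200 and -5.99 in BR100, CEACAM5 by -1.91 and -2.17, VIL1 by -1.75 and -1.85, KRT20 by -0.56 and -0.55, and CDH1 by -0.48 and -0.70, in the same order. CD14, a monocyte marker, was called higher in BR200, by 0.78 against BR100 and 1.05 against wild type, and COL1A1, a fibroblast collagen, was called lower in BR100 than in wild type, by -0.33. The part of these markers in the changes of the list was not tested.

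**Figure D2:**
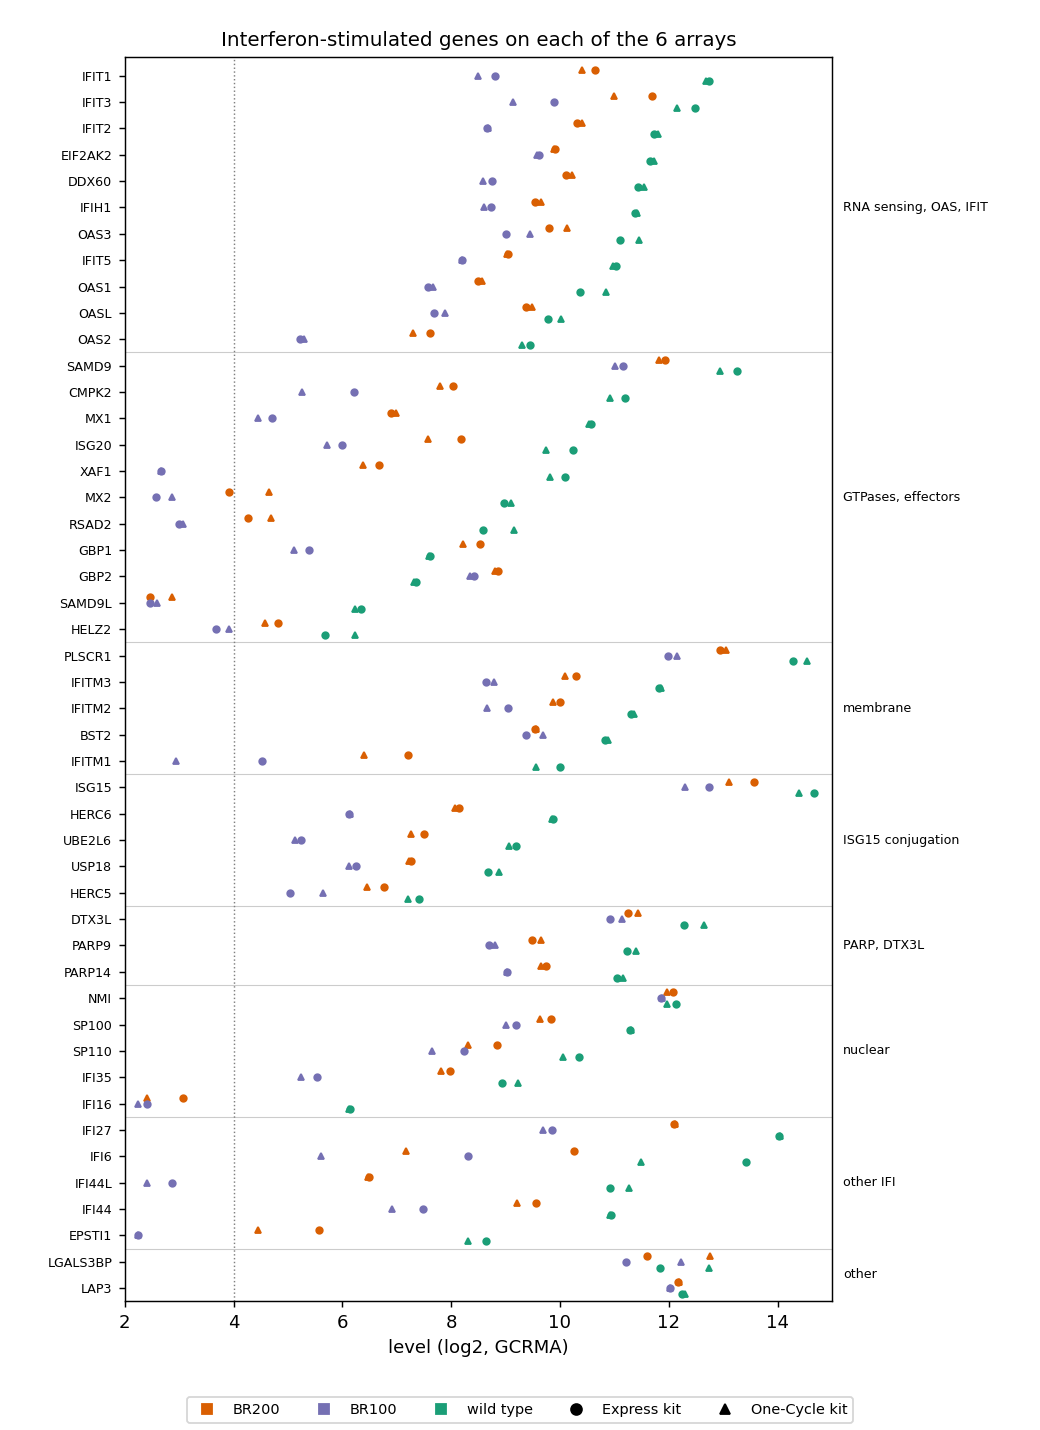
Level of each of the 47 tested genes on the 6 arrays (horizontal axis, log2 GCRMA level; the dotted line marks 4, the filter), grouped by role from top to bottom. Colour gives the variant and shape the labelling kit; in most rows the BR200 points lie between those of BR100 and wild type.

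The RNA sensing group held 11 genes, of which 11 were called lower in BR200 and 11 in BR100 than in wild type, and 10 higher in BR200 than in BR100. It comprises the sensors IFIH1 (MDA5) and DDX60, the 2'-5' oligoadenylate synthases that activate RNase L, the kinase EIF2AK2 (PKR) that stops translation, and the IFIT proteins that bind foreign RNA. OAS2 had log2 levels of 7.61 and 7.30 in BR200, 5.22 and 5.30 in BR100, and 9.45 and 9.30 in wild type. BR200 lay midway and no groups overlapped. Its change was 2.20 ± 0.113 (log2, SE) in BR200 minus BR100 (adjusted p = 0.00525), -4.12 in BR100 minus wild type and -1.92 in BR200 minus wild type.

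OASL, an OAS family member without the synthase activity, had log2 levels of 9.37 and 9.48 in BR200, 7.69 and 7.89 in BR100, and 9.78 and 10.02 in wild type. BR200 came close to wild type, still below it on both arrays. The change was 1.64 ± 0.0712 in BR200 minus BR100 (limma adjusted p = 0.00441), -2.11 ± 0.0712 in BR100 minus wild type (adjusted p = 0.000133) and -0.48 ± 0.0712 in BR200 minus wild type (adjusted p = 0.00487). IFIT3, the partner that stabilises IFIT1 on RNA, showed a like pattern with a kit offset. Its log2 levels were 11.70 and 10.99 in BR200, 9.89 and 9.13 in BR100, and 12.49 and 12.14 in wild type. Within each kit BR200 lay between the others, and its change was 1.84 ± 0.125 in BR200 minus BR100, -2.81 in BR100 minus wild type and -0.97 in BR200 minus wild type.

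EIF2AK2 was the sensing gene with no call between the resistant variants. Its log2 levels were 9.91 and 9.89 in BR200, 9.61 and 9.57 in BR100, and 11.65 and 11.74 in wild type. Both resistant variants stood below wild type and near each other, with a change of 0.31 ± 0.0715 in BR200 minus BR100 (limma adjusted p = 0.0667). EIF2AK2 changed by -2.10 in BR100 minus wild type and by -1.79 in BR200 minus wild type. The remaining OAS, IFIT and sensor genes, IFIT1, IFIT2, IFIT5, OAS1, OAS3, IFIH1 and DDX60, changed by 0.74 (OAS3) to 1.88 (IFIT1) in BR200 minus BR100. Their changes in BR100 minus wild type ran between -4.07 for IFIT1 and -2.05 for OAS3.

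IFIT1 had log2 levels of 10.65 and 10.40 in BR200, 8.81 and 8.49 in BR100, and 12.74 and 12.69 in wild type. IFIT2, IFIT3, IFIT1 and IFIT5 lie together on chromosome 10, and OAS1, OAS3 and OAS2 lie next to each other on chromosome 12. On the probe sets used, neighbours did not move by equal amounts. In BR200 minus wild type, IFIT3 changed by -0.97 and IFIT1 by -2.19, and OAS3 by -1.32 and OAS1 by -2.08. Second probe sets gave -1.18 for IFIT3, -2.31 for OAS1 and -0.26 (not called) for OAS3, so probe sets of 1 gene also differed.

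Of the GTPases and other antiviral effectors, 9 of 11 were called lower in BR200 and 10 of 11 in BR100 than in wild type, and 9 were called higher in BR200 than in BR100. XAF1, a pro-apoptotic antagonist of the caspase inhibitor XIAP, had log2 levels of 6.67 and 6.38 in BR200, 2.67 and 2.67 in BR100, and 10.10 and 9.81 in wild type. It was near background in BR100, above it in BR200 and highest in wild type. Its change was 3.86 ± 0.102 in BR200 minus BR100 (limma adjusted p = 0.00283), a size that depends on the background estimate in BR100. In BR100 minus wild type XAF1 changed by -7.29 ± 0.102 and in BR200 minus wild type by -3.43 ± 0.102. A second XAF1 probe set gave 2.56, -5.83 and -3.27 in the same comparisons.

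MX1 and MX2, dynamin-like GTPases that block incoming viral particles, lie side by side on chromosome 21. MX1 had log2 levels of 6.89 and 6.98 in BR200, 4.71 and 4.44 in BR100, and 10.56 and 10.52 in wild type. MX2 had 3.92 and 4.65 in BR200, 2.58 and 2.87 in BR100, and 8.97 and 9.10 in wild type. Both genes ordered the variants alike with no overlap, but MX2 in BR200 stayed close to background. MX1 changed by 2.36 ± 0.108 and MX2 by 1.56 ± 0.164 in BR200 minus BR100 (limma adjusted p = 0.00478 and 0.0184). In BR200 minus wild type MX1 changed by -3.61 and MX2 by -4.75.

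RSAD2 (viperin), a radical SAM enzyme that makes a chain-terminating nucleotide, and CMPK2, the kinase that supplies its substrate, are adjacent on chromosome 2. RSAD2 had log2 levels of 4.27 and 4.70 in BR200, 3.00 and 3.08 in BR100, and 8.59 and 9.15 in wild type. CMPK2 had 8.03 and 7.79 in BR200, 6.21 and 5.25 in BR100, and 11.20 and 10.92 in wild type. In both, BR200 was nearer to BR100 than to wild type. RSAD2 changed by 1.45 ± 0.137 in BR200 minus BR100 and -5.83 in BR100 minus wild type, and CMPK2 by 2.18 ± 0.204 and -5.33. A second RSAD2 probe set changed by 0.25 in BR200 minus BR100, where it was not called (limma adjusted p = 0.2), and by -5.03 in BR100 minus wild type and -4.78 in BR200 minus wild type. Both probe sets were near background in BR100, and the difference between the resistant variants rests on 1 of the 2.

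SAMD9 and SAMD9L, adjacent on chromosome 7 and restrictors of poxvirus growth, differed. SAMD9L had log2 levels of 2.46 and 2.86 in BR200, 2.46 and 2.59 in BR100, and 6.35 and 6.23 in wild type. Both resistant variants were near background, so a difference between them was not measurable here (0.14 ± 0.139, limma adjusted p = 0.565). SAMD9 had levels of 11.93 and 11.82 in BR200, 11.15 and 11.01 in BR100, and 13.25 and 12.95 in wild type. It was called higher in BR200 than in BR100, by 0.79 ± 0.0794 (adjusted p = 0.0172), and lower than wild type in both. The exonuclease ISG20 changed by 2.02 in BR200 minus BR100 and by -4.13 in BR100 minus wild type, and the helicase HELZ2 by 0.90 (not called, adjusted p = 0.0634) and -2.17. A second HELZ2 probe set changed by 0.05 in BR100 minus wild type and was not called.

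The guanylate-binding proteins GBP1 and GBP2, GTPases that attack membranes around intracellular microbes, are neighbours on chromosome 1 and departed from the list. GBP1 had log2 levels of 8.52 and 8.21 in BR200, 5.38 and 5.12 in BR100, and 7.61 and 7.59 in wild type. BR200 was the highest variant and BR100 the lowest, on both kits. GBP1 changed by 3.12 ± 0.0983 in BR200 minus BR100 (limma adjusted p = 0.00283), -2.35 ± 0.0983 in BR100 minus wild type (adjusted p = 0.000186) and 0.77 ± 0.0983 in BR200 minus wild type (adjusted p = 0.00298). Its 2 other kept probe sets gave 3.45 and 3.65 in BR200 minus BR100, and 0.90 (not called) and 0.98 in BR200 minus wild type.

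GBP2 was the only tested gene of the list called higher than wild type in BR100. Its log2 levels were 8.86 and 8.81 in BR200, 8.42 and 8.35 in BR100, and 7.35 and 7.31 in wild type. The 3 variants did not overlap and wild type was lowest. It changed by 0.45 ± 0.0643 in BR200 minus BR100 (limma adjusted p = 0.0309), 1.06 ± 0.0643 in BR100 minus wild type (adjusted p = 0.000389) and 1.50 ± 0.0643 in BR200 minus wild type (adjusted p = 0.000219). A second GBP2 probe set changed by 0.29 in BR100 minus wild type, where it was not called, and by 0.90 in BR200 minus wild type.

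**Figure D3:**
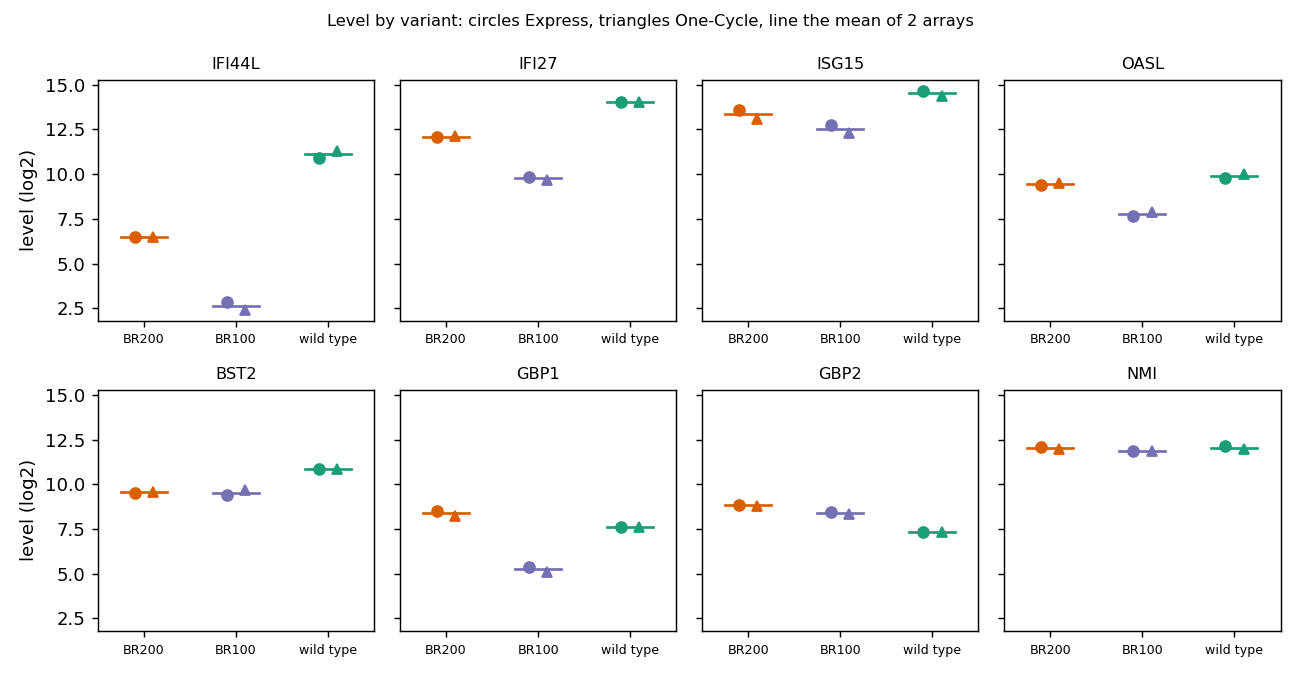
Log2 levels of 8 genes of the list (vertical axis) in BR200, BR100 and wild type; circles are Express arrays, triangles One-Cycle arrays and lines the mean of 2 arrays. IFI44L, IFI27, ISG15 and OASL place BR200 in the middle at different depths, BST2 is alike in the resistant variants, GBP1 is highest in BR200, GBP2 is lowest in wild type, and NMI lies close together in the 3 variants.

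The membrane proteins comprise the IFITM proteins, which hinder fusion of viral with cell membranes, BST2 (tetherin), which holds budding virus at the surface, and PLSCR1, a scramblase. All 5 tested were called lower in both resistant variants than in wild type, and 4 higher in BR200 than in BR100. IFITM1 had log2 levels of 7.21 and 6.40 in BR200, 4.52 and 2.93 in BR100, and 10.00 and 9.57 in wild type. The variants did not overlap, although the arrays of BR100 lay far apart. Its change was 3.08 ± 0.289 in BR200 minus BR100 (limma adjusted p = 0.0156), -6.06 in BR100 minus wild type and -2.98 in BR200 minus wild type. IFITM2 and IFITM3, its close paralogs on chromosome 11, changed by 1.08 and 1.48 in BR200 minus BR100 and by -2.48 and -3.12 in BR100 minus wild type. Probe sets of the IFITM genes may take up each other's RNA, so their separate values are uncertain.

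BST2 had log2 levels of 9.54 and 9.56 in BR200, 9.38 and 9.68 in BR100, and 10.83 and 10.87 in wild type. The resistant variants overlapped, and both stood below wild type. BST2 changed by 0.02 ± 0.0975 in BR200 minus BR100 (limma adjusted p = 0.928), -1.32 ± 0.0975 in BR100 minus wild type (adjusted p = 0.000597) and -1.30 ± 0.0975 in BR200 minus wild type (adjusted p = 0.00069). PLSCR1 changed by 0.92 in BR200 minus BR100 and -2.34 in BR100 minus wild type. RTP4, a chaperone that helps receptors leave the Golgi, was set aside by the filter, with log2 levels of 2.40 and 2.40 in BR200, 2.36 and 2.40 in BR100, and 3.83 and 3.17 in wild type.

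Of the 5 genes of ISG15 and its conjugation enzymes that were tested, 4 were called lower in BR200 and 5 in BR100 than in wild type, and 4 were called higher in BR200 than in BR100. ISG15 had log2 levels of 13.57 and 13.11 in BR200, 12.73 and 12.31 in BR100, and 14.67 and 14.39 in wild type. Within each kit BR200 lay between BR100 and wild type, and no groups overlapped. ISG15 changed by 0.82 ± 0.0781 in BR200 minus BR100 (limma adjusted p = 0.0161), -2.01 in BR100 minus wild type and -1.19 in BR200 minus wild type. UBE2L6, the E2 enzyme that passes ISG15 on, changed more. Its levels were 7.50 and 7.27 in BR200, 5.23 and 5.13 in BR100, and 9.19 and 9.06 in wild type, a change of 2.20 ± 0.0709 in BR200 minus BR100 (adjusted p = 0.00283) and -3.95 in BR100 minus wild type.

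HERC5, the E3 ligase for ISG15, was called lower in BR100 (-1.97 in BR100 minus wild type) and not called in the other comparisons. It changed by 1.27 ± 0.248 in BR200 minus BR100 (limma adjusted p = 0.051) and by -0.70 ± 0.248 in BR200 minus wild type (adjusted p = 0.0632). HERC6, its neighbour on chromosome 4, changed by 1.98 in BR200 minus BR100 and -3.73 in BR100 minus wild type. USP18, the protease that removes ISG15 and damps the interferon receptor, changed by 1.06 and -2.59. UBA7, the E1 enzyme, had no probe set of its own and was not tested, since its probe sets also named MIR5193.

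PARP9, DTX3L and PARP14, an ADP-ribosyltransferase, its ubiquitin ligase partner and a macrodomain protein, lie close together on chromosome 3. All 3 were called lower in both resistant variants than in wild type, and PARP9 and PARP14 higher in BR200 than in BR100. DTX3L had log2 levels of 11.25 and 11.44 in BR200, 10.93 and 11.15 in BR100, and 12.29 and 12.65 in wild type. BR200 was higher than BR100 within each kit, but the change of 0.31 ± 0.0776 was not called (limma adjusted p = 0.0811). PARP9 changed by 0.82 and PARP14 by 0.67 in BR200 minus BR100, and by -2.57 and -2.08 in BR100 minus wild type.

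Of the nuclear and scaffold proteins, SP100 and SP110 of nuclear bodies, the DNA sensor IFI16 and IFI35 were called lower in both resistant variants. NMI, the partner of IFI35, was called lower in neither. IFI16 passed the filter through wild type alone, so its calls against wild type are no support. IFI35 had log2 levels of 7.97 and 7.82 in BR200, 5.53 and 5.24 in BR100, and 8.94 and 9.24 in wild type. BR200 lay nearer to wild type than to BR100. IFI35 changed by 2.51 ± 0.16 in BR200 minus BR100 (limma adjusted p = 0.00743), -3.70 in BR100 minus wild type and -1.19 in BR200 minus wild type.

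IFI16 had log2 levels of 3.08 and 2.41 in BR200, 2.40 and 2.23 in BR100, and 6.14 and 6.12 in wild type. Both resistant variants were near background and almost met, with a change of 0.42 ± 0.176 in BR200 minus BR100 (limma adjusted p = 0.193). NMI had levels of 12.08 and 11.96 in BR200, 11.85 and 11.88 in BR100, and 12.14 and 11.96 in wild type. The variants lay close together, with changes of 0.16, -0.18 and -0.03 and limma adjusted p of 0.277, 0.108 and 0.792. SP100 and SP110 each changed by 0.63 in BR200 minus BR100, and by -2.19 and -2.26 in BR100 minus wild type.

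The other IFI genes and EPSTI1 had a median change of -3.46 in BR200 minus wild type and -5.50 in BR100 minus wild type. All 5 were called lower in both resistant variants than in wild type and higher in BR200 than in BR100. IFI44L, a cytosolic protein induced by type I interferon, had log2 levels of 6.48 and 6.46 in BR200, 2.87 and 2.41 in BR100, and 10.93 and 11.28 in wild type. BR100 was near background and BR200 about midway. IFI44L changed by 3.83 ± 0.204 in BR200 minus BR100 (limma adjusted p = 0.00525), -8.46 ± 0.204 in BR100 minus wild type (adjusted p = 7.93e-05, a fold of 352) and -4.63 ± 0.204 in BR200 minus wild type. IFI44, its neighbour on chromosome 1, changed by 2.19, -3.73 and -1.55 in the same comparisons.

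IFI27, a small membrane protein used as a marker of interferon exposure in blood, had log2 levels of 12.09 and 12.12 in BR200, 9.85 and 9.69 in BR100, and 14.03 and 14.05 in wild type. It lay far above background on all 6 arrays, and the arrays of a variant nearly coincided. Its change was 2.33 ± 0.0808 in BR200 minus BR100 (limma adjusted p = 0.00283), -4.27 ± 0.0808 in BR100 minus wild type (adjusted p = 6.99e-05) and -1.93 ± 0.0808 in BR200 minus wild type (adjusted p = 0.00021).

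IFI6, which guards the endoplasmic reticulum and mitochondria, depended most on the kit. Its log2 levels were 10.26 and 7.16 in BR200, 8.31 and 5.61 in BR100, and 13.42 and 11.49 in wild type. Pooled over kits the resistant variants overlapped, while within each kit BR200 lay between BR100 and wild type. The kit difference was 2.58 ± 0.238 (Express minus One-Cycle, limma adjusted p = 0.00644), and with the kit as a block IFI6 changed by 1.75 ± 0.291 in BR200 minus BR100 (adjusted p = 0.0396).

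EPSTI1, an epithelial gene first named for induction by stromal cells, had log2 levels of 5.58 and 4.45 in BR200, 2.23 and 2.23 in BR100, and 8.64 and 8.31 in wild type. Both BR100 arrays lay at or next to the lowest value of the data. It changed by 2.78 ± 0.287 in BR200 minus BR100 (limma adjusted p = 0.0181), -6.24 in BR100 minus wild type and -3.46 in BR200 minus wild type. Its other probe set gave 0.15 in BR200 minus BR100 and was not called there, with -3.21 and -3.06 against wild type, so the difference between the resistant variants rests on 1 of the 2 probe sets.

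LGALS3BP, a secreted galectin ligand, and LAP3, an aminopeptidase, were the genes called lower in BR100 by less than 2-fold. LGALS3BP had log2 levels of 11.59 and 12.75 in BR200, 11.21 and 12.23 in BR100, and 11.83 and 12.75 in wild type. The groups overlapped across kits, and within kits BR100 was lowest. Its change was 0.45 ± 0.0871 in BR200 minus BR100 (limma adjusted p = 0.0496), -0.57 ± 0.0871 in BR100 minus wild type (adjusted p = 0.00491) and -0.12 ± 0.0871 in BR200 minus wild type (adjusted p = 0.296). LAP3 changed by 0.15 (not called), -0.25 (called, adjusted p = 0.0264) and -0.09 (not called). IFI30, a lysosomal thiol reductase, had no probe set that the annotation names and was not analysed here.

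**Figure D4:**
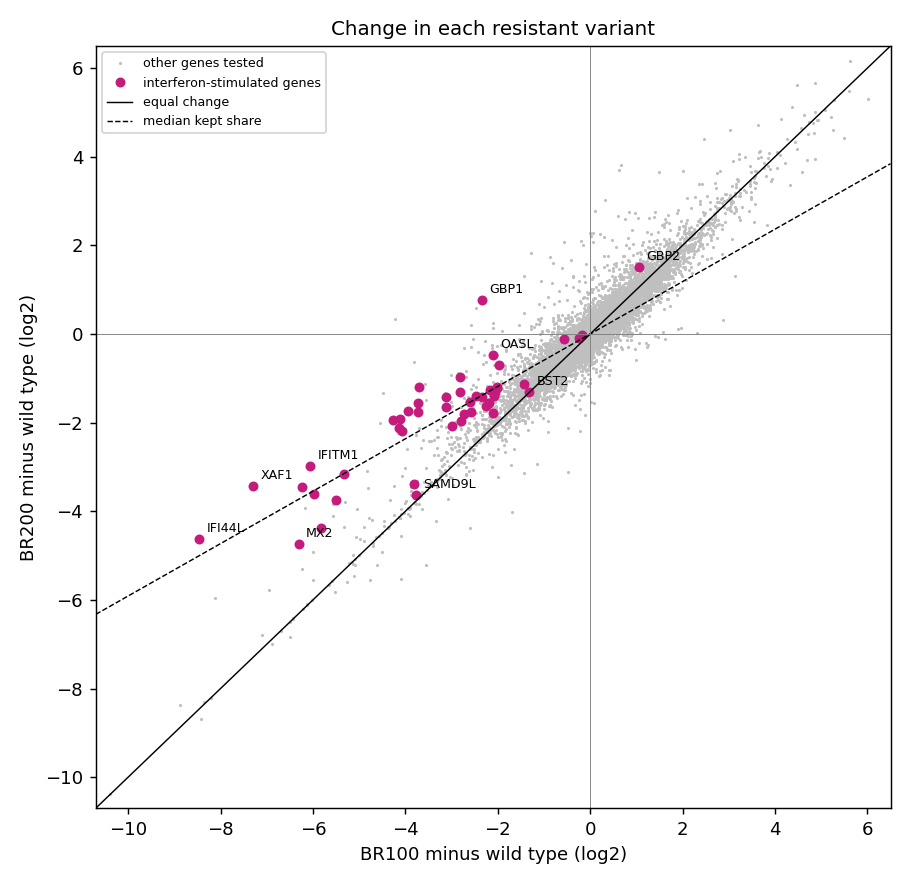
Change of each gene in BR200 minus wild type (vertical axis, log2) against its change in BR100 minus wild type (horizontal axis, log2) for the 47 interferon-stimulated genes (large points) and the other genes tested (small points). The solid line marks equal change and the dashed line the median kept share of 59.1%; both axes share the wild type arrays. IFI44L lies at -4.63 in BR200 and -8.46 in BR100, GBP1 at 0.77 in BR200 and -2.35 in BR100, and BST2 at -1.30 in BR200 and -1.32 in BR100.

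The share of the BR100 fall that BR200 keeps was taken as the log2 change of BR200 minus wild type over that of BR100 minus wild type. Both parts of this ratio hold the wild type arrays, so it is a description, and the test that bears on it is BR200 against BR100. Over the 43 genes at least 2-fold lower in BR100, the median share was 59.1%, with quartiles of 46.9% and 68.9%. Over the 1201 other genes at least 2-fold lower in BR100, it was 89.9%, with quartiles of 71.6% and 101%. The share lay between 40% and 70% for 28 of the 43 genes, against 17.9% of all genes with such a fall. Within the Express arrays the median over the 43 genes was 57.8%, and within the One-Cycle arrays 58.5%. Leaving out the 8 genes near background in BR100 gave 59.1% over 35 genes.

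Shares were lowest for GBP1, LGALS3BP, OASL, IFI35 and IFIT3, at -32.9%, 20.4%, 22.5%, 32.1% and 34.5%; LGALS3BP fell by less than 2-fold and is not among the 43. A share under 0 means that BR200 passed wild type. Shares were highest for BST2, SAMD9L, IFI16, EIF2AK2 and DTX3L, at 98.6%, 96.4%, 88.9%, 85.1% and 78.6%. None of these 5 genes was called different between BR200 and BR100. A high share means a small BR200 minus BR100 change for the size of the fall, so the missing calls are not a separate finding. SAMD9L and IFI16 lay under 4 on both arrays in BR200 and in BR100, so their shares are set by the background and the missing call does not show that the resistant variants were alike. IFI27 kept 45.3%, XAF1 47.1%, IFI44L 54.7%, ISG15 59.1%, MX1 60.5% and MX2 75.2%. By role the median share was 53.9% for the 11 sensing genes, 59.8% for 10 effectors, 56.6% for 5 membrane proteins and 47% for 5 ISG15 pathway genes. It was 68.1% for PARP9, DTX3L and PARP14, 71.7% for 4 nuclear proteins and 54.7% for the 5 other IFI genes.

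**Figure D5:**
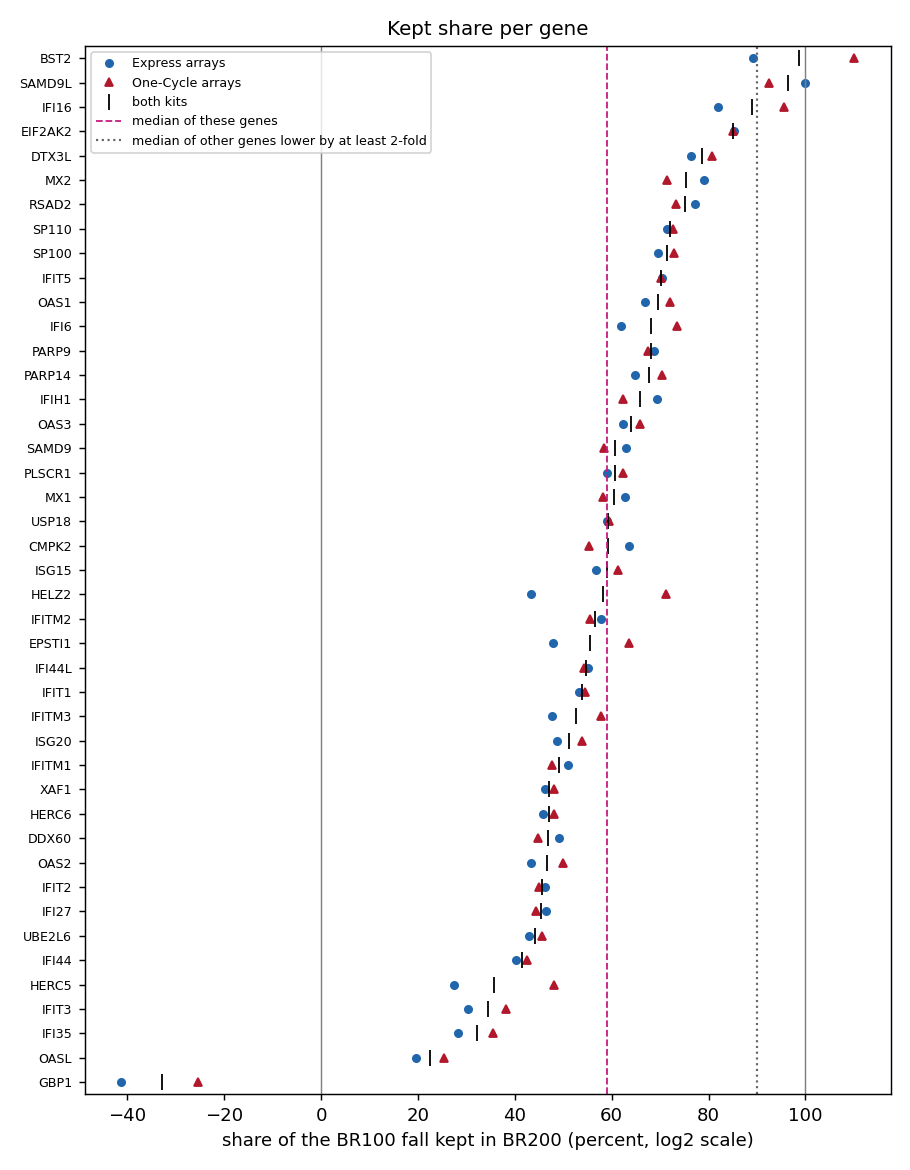
Share of the BR100 fall kept in BR200 (horizontal axis, percent on the log2 scale) for the 43 genes at least 2-fold lower in BR100, within Express arrays (circles), within One-Cycle arrays (triangles) and over both kits (ticks). The dashed line is the median of the 43 genes, 59.1%, and the dotted line that of the 1201 other genes, 89.9%; the 2 kits mostly give similar shares, with HELZ2 the widest apart.

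Depth of fall was set beside the promoter letters for the 40 tested genes that had a promoter window. Genes with and without the letters were not tested against each other. The part of the letters in the changes was not tested. The 27 tested genes with the paired GAAA motif in the window had a median change of -2.73 in BR100 minus wild type. The 13 tested genes without it had -3.73. Outside the list, 202 tested genes with the letters had a median change of -0.06 in BR100 minus wild type, and 8115 genes without them 0.06. With the letters, changes ran from -8.46 for IFI44L to -0.18 for NMI. Without them they ran from -7.29 for XAF1 to -2.17 for HELZ2.

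Probe sets of the same gene mostly agreed in direction. Of 79 kept probe sets of the list tested on their own, 49 were called higher and 0 lower in BR200 than in BR100. Over all 19055 kept probe sets limma called 1087 in either direction there. At limma's unadjusted p under 0.05, 64 of the 79 were higher and 0 lower, and the share of all probe sets at that level was not counted. Against wild type, 68 of the 79 were called lower in BR200 and 75 in BR100. Most probe sets were called in these comparisons, 11349 and 11972 of the 19055 in either direction. Among 23 genes with several kept probe sets, the direction was shared in 22 in BR100 minus wild type (HELZ2 differed) and in 21 in BR200 minus BR100 (EIF2AK2 and HELZ2 differed). In BR200 minus BR100, 9 of the 23 genes had at least 1 probe set called and at least 1 not called: EPSTI1, IFIH1, OAS2, OAS3, PARP9, RSAD2, SAMD9, SP100 and SP110.

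The labelling kits differed for fewer genes of the list. In Express against One-Cycle, 6 of the 47 genes were called higher (IFIT3, ISG20, IFITM1, ISG15, SP110 and IFI6) and 3 lower (OAS3, DTX3L and LGALS3BP), where 22.4% and 11.7% of all genes were. Apart from IFI6 (2.58) and LGALS3BP (-1.03), these kit differences were under 2-fold.

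The receptors, kinases and factors that act on these genes were counted on a list of 23, of which 16 were tested. In BR200 against BR100, 3 were called higher and 0 lower, where 6.39% and 4.23% of all genes were. At limma's unadjusted p under 0.05 there were 5 of the 16, and 3259 of all 10370 genes. In BR100 against wild type 9 were called lower and 0 higher, where 31.8% and 36.7% of all genes were. In BR200 against wild type 7 were called lower and 1 (TYK2) higher, where 31.2% and 35.4% of all genes were. IRF9, the DNA-binding part of the complex that acts at the response element, had log2 levels of 8.49 and 8.63 in BR200, 7.07 and 7.09 in BR100, and 9.82 and 10.36 in wild type. BR200 was in the middle, with changes of 1.48 ± 0.145 in BR200 minus BR100 (limma adjusted p = 0.0166), -3.01 in BR100 minus wild type and -1.53 in BR200 minus wild type. IRF7, which amplifies interferon production, changed by 0.41 (not called), -3.11 and -2.69, and the kinase JAK1 by 0.13 (not called), -1.42 and -1.29. The receptor chain IFNAR2 changed by 0.00 (not called), -1.13 and -1.12.

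Among 15 genes that sense nucleic acid upstream of interferon, 13 were tested and moved both ways, as genes in general did. In BR200 against wild type 6 were called lower and 4 higher, where 31.2% and 35.4% of all genes were. In BR100 against wild type 5 were called lower and 5 higher, where 31.8% and 36.7% of all genes were. TLR3, the endosomal sensor of double-stranded RNA, changed by 1.01 in BR200 minus BR100, -3.11 in BR100 minus wild type and -2.10 in BR200 minus wild type. RNASEH2A, the catalytic subunit of RNase H2, changed by 4.78 in BR200 and 4.74 in BR100 against wild type. Of 18 interferon genes with a probe set, only IFNE, an epithelial type I interferon, passed the filter, and it changed by -1.63 in BR200 and -1.45 in BR100 against wild type.

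The second list of 48 interferon-stimulated genes had 38 tested. In BR200 against BR100, 12 were called higher and 0 lower, where 6.39% and 4.23% of all genes were. At limma's unadjusted p under 0.05 there were 21 of the 38, and 3259 of all 10370 genes. In BR100 against wild type 30 were called lower and 2 higher, where 31.8% and 36.7% of all genes were, with a median change of -0.94. In BR200 against wild type 26 were called lower and 5 higher, where 31.2% and 35.4% of all genes were, with a median of -0.68. RIGI, a cytosolic RNA sensor that also stands on the upstream list, changed by 1.28, -3.23 and -1.95 in the 3 comparisons. TRIM22, an antiviral ubiquitin ligase, changed by 0.25 (not called), -3.88 and -3.63. TNFSF10 (TRAIL), a death receptor ligand, changed as GBP1 did, by 3.07, -2.48 and 0.59, each called. For the 18 genes of that list at least 2-fold lower in BR100, the median kept share was 71.7%.

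Class I presentation genes, often induced with the list, had more mixed calls than it against wild type. Of 18 genes 15 were tested, and in BR200 against BR100 11 were called higher and 0 lower, where 6.39% and 4.23% of all genes were. At limma's unadjusted p under 0.05 there were 14 of the 15, and 3259 of all 10370 genes. In BR100 against wild type 9 were called lower and 4 higher, where 31.8% and 36.7% of all genes were. In BR200 against wild type 3 were called lower and 7 higher, where 31.2% and 35.4% of all genes were. The immunoproteasome subunit PSMB9 changed by 2.30 in BR200 minus BR100, -0.20 (not called) in BR100 minus wild type and 2.10 in BR200 minus wild type. The peptide transporter subunit TAP2 changed by 0.99, -2.42 and -1.42 in those comparisons.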

How the data were processed

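The deposited values are log2 levels of probe sets, which the authors made with GCRMA, per the submitters' processing notes, which give no version. On each array 35.0% to 35.5% of probe sets sat at 2.23, the lowest value. No detection calls were given, and the number of arrays limits the precision.

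Of 54675 probe sets, the platform annotation named 1 gene for 41097, several for 1801 and none for 11777. For each of 19775 genes, the probe set naming it alone with the largest mean level was used. Genes with a log2 value of at least 4 on at least 2 arrays were kept, 10370 in all, and 9405 were set aside. All 6 arrays were fitted with limma 3.58.1 (lmFit, eBayes, R 4.3.3) with terms for variant and labelling kit, two-sided, with Benjamini-Hochberg adjustment over all genes kept. The fit had 2 residual degrees of freedom, and eBayes added 2.33. Errors are limma's standard errors (SE). The kit is also the replicate number and pairs the arrays: deviations from the variant means correlated across genes at 0.845 between BR200 and BR100, 0.776 between BR200 and wild type, and 0.762 between BR100 and wild type. The model was also run on simulated data, with changes in BR100 alone and the same kit shift for every gene. That run was scored for BR100 minus wild type only, so it does not bear on the BR200 minus BR100 calls.

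The members, the gene lists and the role groups were chosen with earlier results of these data known. All values on 6 arrays were due for the 10 genes with the largest change in BR100 minus wild type, the 10 with the largest in BR200 minus BR100, the 5 highest and 5 lowest kept shares, and every member that rose in a resistant variant. Of the other lists, up to 5 called genes with the largest change were named; genes named beyond this were chosen after their values were seen. Promoter sequences are RefSeq's, build GRCh38.p14. Alternatives changed the kit block, the filter, the choice of probe set, the normalization, the treatment of values under 4, the eBayes prior and the arrays included.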

Additional observations from a re-analysis of the deposited data

Results flagged for a closer look

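GBP1 moved in opposite directions against wild type in the resistant variants, with both changes called by limma: it was higher in BR200 and lower in BR100. The difference itself, BR200 minus BR100, was 3.12 ± 0.0983 on the log2 scale (limma adjusted p = 0.00283), and GBP1 was higher in BR200 on both kits.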

How the results depend on the processing

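No called change reversed under any alternative. Against wild type, counts of called genes stayed within 1.5 times of the main count in every alternative, except that BR200 had 1 gene called higher in place of 2 when values under 4 were raised to 4. The median of BR100 minus wild type became -3.04 with each probe set tested alone. In BR200 against BR100, limma called 1102 of all 10370 genes in the main fit and 112 with no replicate block. It called 15 of 19775 genes with no filter and 0 with values under 4 raised to 4. Of the list, limma called 38 genes higher with the kit as replicate block and 18 with no replicate block. It called 0 of the list with no filter (42 at an unadjusted p under 0.05) and 0 with values under 4 raised to 4 (39). With both of these settings all 19775 genes were tested and eBayes added 0.356 or 0.288 degrees of freedom in place of 2.33. Shares of all genes at an unadjusted p under 0.05 were not counted under any alternative. Leaving out 1 array gave 0 to 26: 0 without either BR200 or BR100 array (40 to 42 at an unadjusted p under 0.05), which leaves 1 residual degree of freedom, and 26 of 45 without either wild type array. The median of BR200 minus BR100 was 1.17 with no filter, with the mean of probe sets and after quantile normalization, 1.36 with a filter at 6, 1.60 without _x_at and _s_at probe sets, 0.974 with values raised to 4, 1.2 within One-Cycle arrays and 1.09 to 1.45 when leaving out 1 array. Kit calls fell to 0 higher and 0 lower with no filter and with values raised to 4, where limma had 7 and 8 higher and 6 and 6 lower at an unadjusted p under 0.05. Lower kit calls became 6 with each probe set and 8 after median centring, and without 1 array the kit gave 1 to 2 lower and 0 to 4 higher. The median kept share was 58.4% without _x_at and _s_at probe sets, 60.5% with values raised to 4, 57.8% and 58.5% within the Express and One-Cycle arrays, and 54.6% to 60% when leaving out 1 array. The cause of the shifts in the medians, kit calls and kept share was not tested. Of 2346 values of single genes under alternatives, 2033 were counted as the same, 296 lost their call and 17 gained one. The 2033 include the values within 1 kit, 47 for each comparison and kit. Those had no test, so they could neither lose nor gain a call and say nothing about the threshold.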
